A study of Mus musculus with 272 samples.

Results

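The genes described here were the protein-coding genes of the mouse annotation GENCODE M21 (mm10) whose symbol is Zfp followed by digits, leaving out Zfp36 and its Zfp36l relatives. There were 390 of them among 21938 protein-coding genes on the 21 assembled chromosomes. The promoter of a gene was the region 3 kb either side of any of its annotated transcription start sites. No measured value entered this choice, though earlier results of these data were known when it was made. The series examined DNA repair after CRISPR-Cas9 editing in skeletal muscle stem cells (MuSCs), and 8 of its 272 samples, the chromatin libraries, gave the peak lists used here. Open chromatin was measured by ATAC-seq, and 3 histone modifications by ChIP-seq: H3K4me3, found at promoters, H3K27ac, found where promoters and enhancers are active, and H3K27me3, which goes with silencing. Each of these 4 features has 2 replicates. The cells were GFP+ MuSCs sorted from the hindlimb muscle of Pax7Cas9 mice, in which a Cre recombinase expressed from the Pax7 locus turns on a Cas9-EGFP cassette, so that all libraries shared this genotype and no library served as an untreated or unedited contrast. Age, sex and strain of these mice, and whether the replicates came from different animals, are not given in the labels of these libraries, so that the spread between replicates may be technical.

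Most Zfp genes code for proteins with C2H2 zinc fingers, short loops held by a zinc ion. These fingers read DNA in tandem arrays or, in some members, bind RNA or other proteins. Many members also carry a KRAB domain, which recruits the corepressor TRIM28 and with it the histone methyltransferase SETDB1, and such KRAB zinc finger proteins silence retrotransposons and hold imprints. Many KRAB members lie in tandem clusters that grew by gene duplication, so that neighbours can resemble each other in sequence. H3K9me3, the mark these proteins bring to their targets, was not analysed here. In the sorted cells, all 7 muscle stem cell markers checked, Pax7, Myf5, Myod1, Cdh15, Itga7, Vcam1 and Calcr, had ATAC-seq and H3K4me3 promoter peaks in both replicates. All but Calcr also had H3K27ac in both. Of 8 markers of other cells, the endothelial Pecam1 and Cdh5 and the macrophage Csf1r had ATAC-seq peaks but no H3K4me3. Ptprc had ATAC-seq, H3K4me3 and H3K27ac in 1 replicate each, and Myh4 had ATAC-seq in 1 replicate. Pdgfra and Acta1 had ATAC-seq and H3K4me3 together with H3K27me3 in both replicates, and Dcn had no peak.

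The promoters below show the range of sequence behind the results, 250 bases before to 50 after a RefSeq start (build GRCm38.p6), with every CpG in capitals. Zfp384 had the highest H3K4me3 among the members by the lower replicate, Zfp664 the highest H3K27me3 by the same measure (outside the printed window), Zfp119b held H3K4me3 although its gene start has no CpG, Zfp317 had no peak although its start is rich in CpG, and Zfp42 was the first member of known role with no feature in both replicates. Both starts of Zfp119b are printed.
Zfp384, chr6:125008876-125009175, plus strand: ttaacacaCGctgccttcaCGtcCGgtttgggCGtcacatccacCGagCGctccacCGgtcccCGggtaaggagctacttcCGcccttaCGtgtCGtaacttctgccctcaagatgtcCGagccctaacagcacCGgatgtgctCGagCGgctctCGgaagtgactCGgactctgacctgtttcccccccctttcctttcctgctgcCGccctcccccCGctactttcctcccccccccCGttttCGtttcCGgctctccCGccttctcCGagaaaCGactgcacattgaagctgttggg
Zfp664, chr5:124862455-124862754, plus strand: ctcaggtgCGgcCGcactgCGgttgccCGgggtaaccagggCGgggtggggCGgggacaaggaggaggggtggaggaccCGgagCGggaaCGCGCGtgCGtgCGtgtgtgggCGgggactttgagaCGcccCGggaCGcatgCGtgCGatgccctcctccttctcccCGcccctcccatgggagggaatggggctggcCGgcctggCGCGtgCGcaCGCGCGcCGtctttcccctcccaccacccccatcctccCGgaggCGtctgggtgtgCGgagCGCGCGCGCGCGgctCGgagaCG
Zfp119b, gene start, chr17:55949451-55949750, minus strand: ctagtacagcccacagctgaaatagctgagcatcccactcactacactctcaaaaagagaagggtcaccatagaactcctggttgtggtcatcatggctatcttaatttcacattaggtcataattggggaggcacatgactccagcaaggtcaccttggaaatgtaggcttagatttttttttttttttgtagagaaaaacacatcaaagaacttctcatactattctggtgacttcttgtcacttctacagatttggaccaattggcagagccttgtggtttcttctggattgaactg
Zfp119b, inner start, chr17:55945210-55945509, minus strand: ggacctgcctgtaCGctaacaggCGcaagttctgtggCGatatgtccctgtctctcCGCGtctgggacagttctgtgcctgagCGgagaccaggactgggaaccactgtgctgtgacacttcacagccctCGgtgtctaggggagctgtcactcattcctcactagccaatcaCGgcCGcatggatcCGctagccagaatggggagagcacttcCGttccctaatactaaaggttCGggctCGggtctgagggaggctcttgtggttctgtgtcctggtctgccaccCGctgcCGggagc
Zfp317, chr9:19621841-19622140, plus strand: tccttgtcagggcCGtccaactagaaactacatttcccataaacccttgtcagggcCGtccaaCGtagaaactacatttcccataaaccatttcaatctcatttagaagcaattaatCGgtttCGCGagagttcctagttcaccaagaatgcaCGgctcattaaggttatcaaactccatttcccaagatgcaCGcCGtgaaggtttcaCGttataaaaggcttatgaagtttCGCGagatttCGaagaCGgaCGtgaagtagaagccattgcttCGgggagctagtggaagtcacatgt
Zfp42, chr8:43306960-43307259, minus strand: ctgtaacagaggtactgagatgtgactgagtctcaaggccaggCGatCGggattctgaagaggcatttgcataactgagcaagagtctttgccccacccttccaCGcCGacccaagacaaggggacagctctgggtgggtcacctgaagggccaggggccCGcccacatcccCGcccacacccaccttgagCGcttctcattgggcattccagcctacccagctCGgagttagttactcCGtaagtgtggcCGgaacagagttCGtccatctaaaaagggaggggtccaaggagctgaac
Each window spans the upstream promoter and the beginning of the first exon of a transcript. The number of CpG was 25 in Zfp384, 39 in Zfp664, 0 at the gene start and 15 at the inner start of Zfp119b, 16 in Zfp317 and 11 in Zfp42. GC content was lower in Zfp317 (44.7%) than in Zfp384 (61.3%) and Zfp664 (75%).

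Most Zfp promoters were open and carried H3K4me3. ATAC-seq peaks lay at 340 and 331 of the 390 promoters in replicates 1 and 2 and at 328 in both (84.1%), against 67.8% of all protein-coding genes by the same rule. H3K4me3 peaks lay at 332 and 328 promoters and at 328 in both (84.1%), against 60.8% of all. H3K27ac peaks lay at 286 and 271 promoters and at 263 in both (67.4%), against 46.6% of all. The replicates thus differed by 9, 4 and 15 members in these counts. The peaks of the replicates shared bases at 327 of 328 members in ATAC-seq, at all 328 in H3K4me3 and at 262 of 263 in H3K27ac. H3K27me3 was rare, with 9 and 13 promoters and 6 in both (1.54%), against 4.81% of all. No peak of any kind was listed for 45 members (11.5%), against 25.9% of all. No test was run on these shares, since a feature has 2 libraries and genes are not replicates.

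**Figure D1:**
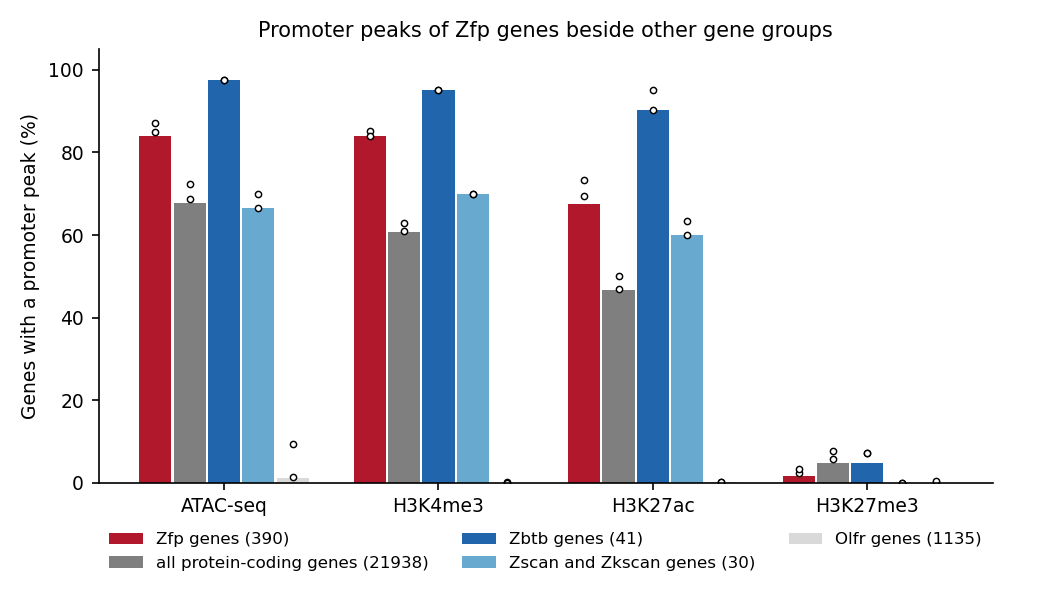
Share of genes with a promoter peak (%) for each feature, in Zfp genes, all protein-coding genes and 3 other gene families. Bars show genes with the peak in both replicates and circles the share in each replicate. Zfp genes stand at 84.1% for ATAC-seq and H3K4me3, between the Zbtb genes and the Zscan and Zkscan genes.

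The features fell on the same members. ATAC-seq, H3K4me3 and H3K27ac without H3K27me3 were found at 260 members (66.7%), against 45.4% of all protein-coding genes. ATAC-seq and H3K4me3 alone were found at 58 members (14.9%), against 10.8% of all, and 56 members (14.4%) had no feature in both replicates, against 30.9% of all. Of the 328 members with H3K4me3, 263 (80.2%) also had H3K27ac, against 76% of all genes with H3K4me3. H3K27me3 was found at 5 of these 328 (1.52%), against 6.34% of all genes with H3K4me3. ATAC-seq without H3K4me3 in both replicates was limited to Zfp663, Zfp976, Zfp385c, Zfp366 and Zfp474, whose ATAC-seq folds were 4.62 to 10.9 in the lists of either replicate. H3K4me3 without ATAC-seq in both was limited to Zfp951, Zfp114, Zfp459, Zfp820 and Zfp300, whose H3K4me3 folds were 3.81 to 9.15. Fold here is the authors' enrichment at the peak's summit over the local background. It was compared only within a library, except where members were ranked by the lower of their 2 replicate folds.

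Peaks sat close to the annotated starts. The median distance from the summit of the strongest promoter peak to the nearest start was 54.5 and 55 bp for ATAC-seq in replicates 1 and 2, against 89 and 86 bp over all protein-coding genes with the peak. For H3K4me3 it was 123.5 and 116 bp, against 155 and 149 bp. For H3K27ac it was 143 and 141 bp, against 168 and 169 bp.

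**Figure D2:**
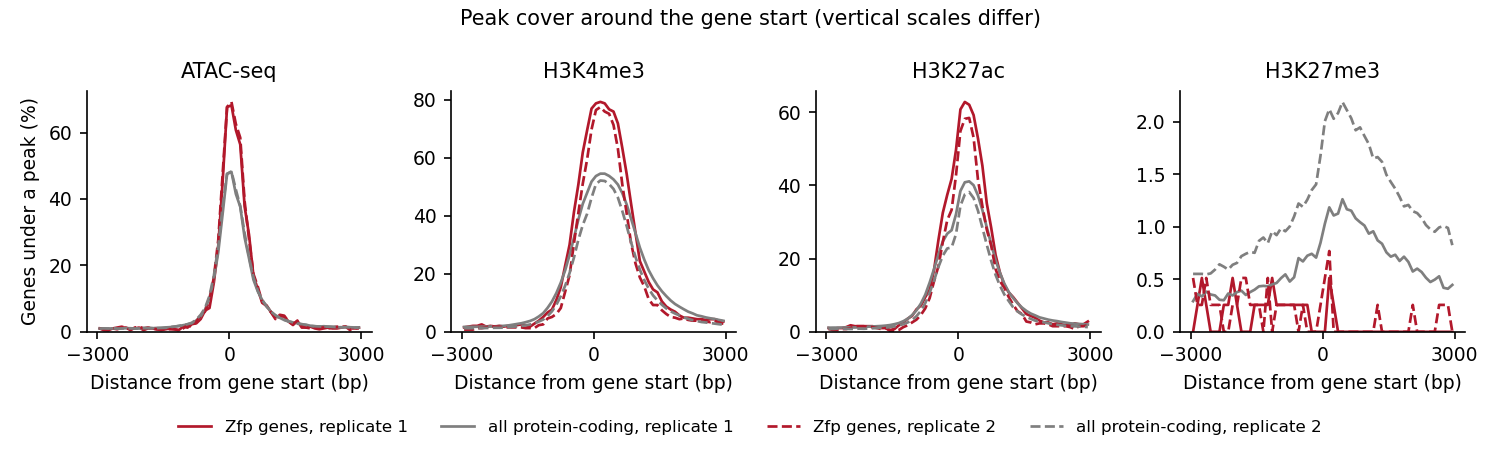
Share of genes (%) whose gene start lies at the given distance (bp) from bases under a peak, for Zfp genes and all protein-coding genes in each replicate. Zfp genes peak above all genes at the start for ATAC-seq, H3K4me3 and H3K27ac. For H3K27me3 few members are covered at any distance.

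By the median, members had higher ATAC-seq peaks and lower H3K4me3 and H3K27ac peaks than all genes with the same feature. The median ATAC-seq fold of members was 15.8 and 14.5 in replicates 1 and 2, against 13.6 and 12.3 over all genes with the peak, and 206 and 215 of 328 members lay above the median of all. The median H3K4me3 fold was 22.4 and 15.6, against 24.5 and 17.6, with 137 and 136 of 328 members above the median of all. The median H3K27ac fold was 13.3 and 10.7, against 14.9 and 12.1, with 113 and 111 of 263 members above it. H3K4me3 peaks of members were also narrower, with a median of 1382 and 1141.5 bp, against 1641 and 1338.5 bp. The order of members was much alike in the replicates. Spearman's rho across the members with the peak was 0.839 (ATAC-seq), 0.929 (H3K4me3) and 0.913 (H3K27ac). Over all protein-coding genes with the peak it was 0.839, 0.939 and 0.921. These values only describe genes that share their libraries.

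The highest ATAC-seq folds by the lower replicate were found at Zfp959 (33.5 and 33.3), Zfp119a (32.8 and 29.6) and Zfp960 (30.2 and 29.4), 3 KRAB-type members on chromosome 17. Zfp959 and Zfp119a have starts 13163 bp apart. Repeated sequence lay near these 3 starts, where 64.7%, 64.6% and 80.4% of 100-base windows occur once in the genome. By the same rule, the highest H3K4me3 folds were found at Zfp384 (50.8 and 40.5), Zfp91 (42.8 and 40.4) and Zfp598 (47.2 and 38.2). Zfp384 is a factor known from leukaemia fusions, Zfp91 a ubiquitin ligase and Zfp598 a ubiquitin ligase that senses collided ribosomes. Among all protein-coding genes with H3K4me3 they ranked 109 and 57, 700 and 59, and 254 and 140 in replicates 1 and 2. Within replicate 1 Zfp217 stood higher, at 52.2, with 37.1 in replicate 2. The H3K4me3 peak of Zfp384 covered chr6:125008249-125010312 in replicate 1 and chr6:125008403-125010260 in replicate 2, and so the whole promoter printed above. By the lower replicate, the highest H3K27ac folds were those of Zfp655 (62.9 and 47.4), Zfp219 (36.4 and 34.6) and Zfp866 (39.9 and 33.5). Zfp219 is a partner of SOX9 in cartilage. Zfp655 ranked 6 and 12 among all protein-coding genes with H3K27ac in replicates 1 and 2. The start of another protein-coding gene lay 532 bp from a start of Zfp219 (Tmem253), 15 bp from one of Zfp866 (Atp13a1) and 67 bp from one of Zfp91 (Lpxn), so that these peaks cannot be told apart from those of the neighbour.

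H3K27me3, which Polycomb group proteins deposit at silent developmental genes, was found in both replicates at Zfp664, Zfp64, Zfp423, Zfp296, Zfp853 and Zfp518a. The folds were 4.88 and 4.91 at Zfp664, 4.88 and 4.79 at Zfp64, 3.75 and 3.76 at Zfp423, 3.38 and 4.45 at Zfp296, 5.25 and 2.74 at Zfp853 and 2.68 and 4.36 at Zfp518a. The highest −log10 q among these peaks was 4.04, at Zfp664. The peaks of the replicates shared bases at 4 of the 6, and not at Zfp423 and Zfp296. Among all protein-coding genes with H3K27me3 in both replicates, they did so at 857 of 1055 (81.2%). The strongest H3K27me3 peaks of Zfp664 were separate ones, chr5:124861060-124862356 in replicate 1 and chr5:124859717-124860353 in replicate 2, with summits 971 and 2420 bp from the nearest start, and neither reached the promoter printed above. In Zfp64 the H3K27me3 summits lay 42654 bp or more from the gene start, near an inner start, and the peaks shared no base with H3K4me3. In Zfp518a the summits lay 2021 bp or more from any start. A start of another gene, Ccdc92, lay 267 bp from one of Zfp664, so that the gene to which the mark belongs there cannot be told apart. Zfp423, which directs cells towards the fat lineage, had H3K4me3 (19.03 and 16.8) and ATAC-seq (10.1 and 10.4) but no H3K27ac peak in either replicate. Zfp296, a partner of pluripotency factors, had the same features at 7.90 and 6.61 for H3K4me3 and 8.84 and 5.41 for ATAC-seq. Another 10 members had an H3K27me3 peak in 1 replicate. With a −log10 q of at least 5, 0 members kept H3K27me3 in both replicates.

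The shares of all 4 features were lower at members with a KRAB-type stretch than at those without. This stretch, a run of amino acids that reads like the domain, was found in 199 members and not in 191. The pattern was fixed and read on the longest coding sequence of a gene. Domains that differ from it are missed, so that the 191 may include KRAB members. ATAC-seq was found in both replicates at 151 of the 199 (75.9%) and at 177 of the 191 (92.7%), H3K4me3 at 154 (77.4%) and 174 (91.1%), and H3K27ac at 117 (58.8%) and 146 (76.4%). All 6 H3K27me3 members lacked the stretch. Repeated sequence moved with this difference, and its part in it was not tested. Among the members with at least 90% of windows near the start found once in the genome, H3K4me3 was found at 136 of 154 with the stretch (88.3%) and 172 of 189 without (91.0%), and H3K27ac at 104 (67.5%) and 144 (76.2%). The median H3K4me3 fold of marked members was 19.5 and 14.02 with the stretch and 25.4 and 18.2 without, and the median width was 1182 and 966 bp with it and 1601 and 1361.5 bp without. The median H3K27ac fold was 9.87 and 8.09 with the stretch and 16.1 and 13.2 without. For ATAC-seq the order was the other way round, at 16 and 15.1 with the stretch and 15.4 and 13.7 without.

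**Figure D3:**
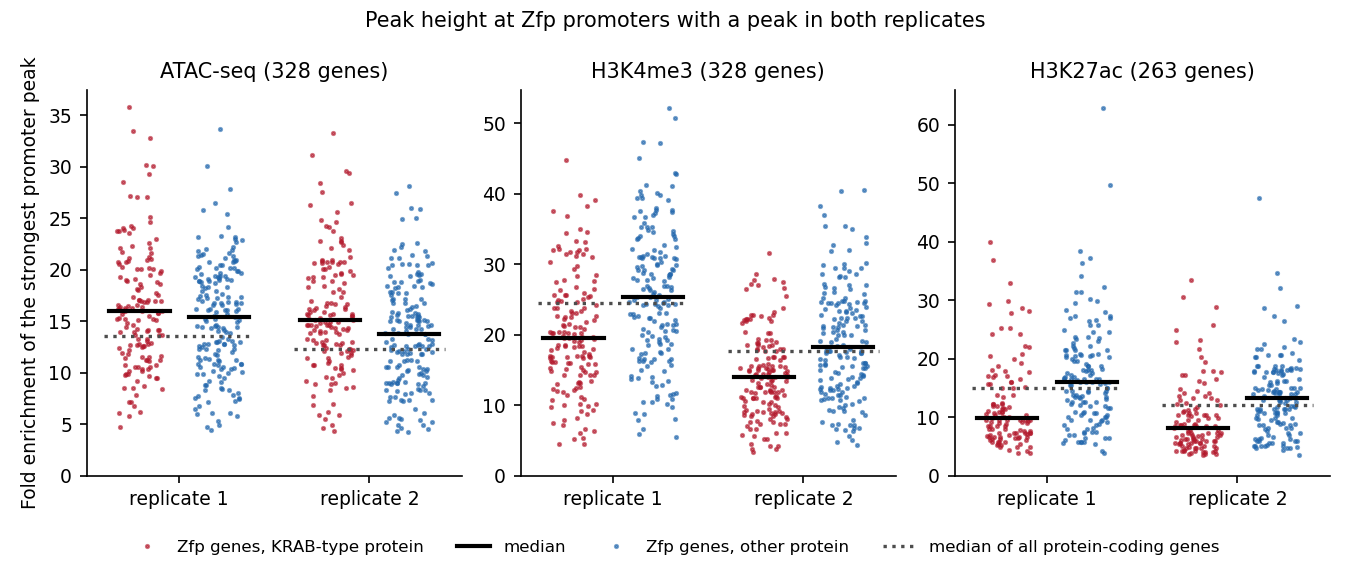
Fold enrichment of the strongest promoter peak in each replicate at Zfp genes with the peak in both, split by whether the protein holds a KRAB-type stretch. Black bars are medians and dotted lines the medians of all protein-coding genes with the peak. The KRAB-type medians lie below the dotted lines for H3K4me3 and H3K27ac and above them for ATAC-seq.

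Clusters were runs of 5 or more members whose neighbouring gene bodies lie at most 250 kb apart. There were 18, which held 164 members, and the other 226 members lay outside. H3K4me3 was found in both replicates at 141 members inside clusters (86.0%) and at 187 outside (82.7%), and H3K27ac at 112 (68.3%) and 151 (66.8%). H3K27me3 was found in both replicates at 0 members inside clusters and 6 outside. Other protein-coding genes between the ends of the same clusters had H3K4me3 at 49 of 97 (50.5%), 11 of 16 of those with 3 or more C2H2 fingers and 38 of 81 of the rest. Marked members inside clusters had narrower H3K4me3 peaks, with medians of 1184 and 1005 bp against 1502 and 1253 bp outside.

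**Figure D4:**
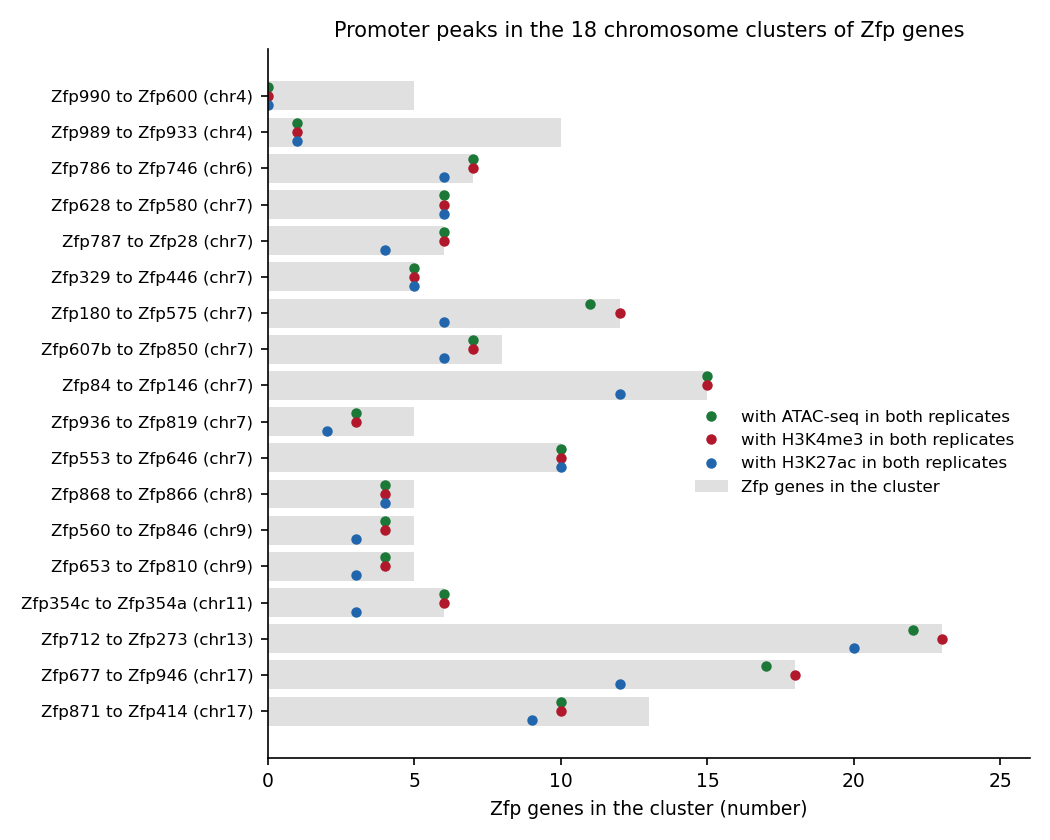
Number of Zfp genes in each of the 18 clusters (grey bars) and number with each of ATAC-seq, H3K4me3 and H3K27ac by the rule of 2 replicates (points), named by the first and last member. Points for ATAC-seq and H3K4me3 reach or nearly reach the end of the bar in most clusters. Points for H3K27ac often fall short of it, as at 6 of 12 from Zfp180 to Zfp575. All points lie at 0 and 1 in the 2 clusters of chromosome 4.

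In 10 clusters every member had H3K4me3. The largest runs from Zfp712 to Zfp273 on chromosome 13, with 23 of 23 members marked, of which 22 had ATAC-seq and 20 had H3K27ac. Its first 8 members had H3K4me3 folds of 24.8 and 23.2 at Zfp712, 20.3 and 13.1 at Zfp708, 13.1 and 8.82 at Zfp759, 18.4 and 11.9 at Zfp455, 22.6 and 17.7 at Zfp458, 23.8 and 15.3 at Zfp457, 11.3 and 6.30 at Zfp595 and 24.7 and 12.7 at Zfp953. Zfp273 at its other end had 31.1 and 16.9. On chromosome 17, 18 of 18 members from Zfp677 (11.1 and 9.82) to Zfp946 (20.5 and 14.8) were marked, and 12 had H3K27ac. On chromosome 7, all 15 from Zfp84 (18.6 and 16.5) to Zfp146 (15.7 and 10.6) were marked, with H3K27ac at 12. A further 12 of 12 on chromosome 7 were marked from Zfp180 (37.6 and 25.9) to Zfp575 (5.92 and 4.41), with H3K27ac at only 6 of them. From Zfp871 (31.8 and 27.1) to Zfp414 (26.4 and 19.9) on chromosome 17, 10 of 13 were marked.

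The clusters of chromosome 4 stood at the other end. From Zfp990 to Zfp600, none of the 5 members Zfp990, Zfp980, Zfp986, Zfp987 and Zfp600 had a peak in any list. From Zfp989 to Zfp933, Zfp933 was the only one of 10 with peaks, with folds of 12.7 and 11.9 in ATAC-seq, 13.2 and 8.40 in H3K4me3, and 9.58 and 6.99 in H3K27ac. All 15 carry a KRAB-type stretch. Repeated sequence was common there, and a read that fits several places would be dropped by the authors' mapping quality filter, so that a missing peak and missing reads cannot be told apart where little sequence is unique. The share of windows found once in the genome was 93.9% at Zfp990, 51.0% at Zfp980, 36.4% at Zfp986, 69.3% at Zfp987 and 27.3% at Zfp600. Of the 14 without peaks in the 2 clusters, 5 had at least 90% unique windows, namely Zfp990, Zfp988, Zfp982, Zfp985 and Zfp984. A like stretch lay on chromosome 2, where all 8 members from Zfp968 to Zfp972 were unmarked and the first 6 of them, Zfp968, Zfp965, Zfp969, Zfp966, Zfp967 and Zfp973, had 0% unique windows, so that the same limit holds there. The next members on the chromosome, Zfp971 and Zfp931, had H3K4me3 at 21.5 and 15.4 and at 16.9 and 9.22, with 79.5% and 39.6% unique windows. Chromosomes 2 and 4 held 12 and 19 of the 58 unmarked members, against 28 and 30 members in all.

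Marked members, with H3K4me3 in both replicates, numbered 328 and unmarked members, with none in either, 58. Zfp804b, Zfp853, Zfp976 and Zfp385c had it in replicate 1 alone. ATAC-seq was found in both replicates at 323 of the 328 marked members (98.5%), near the 98.6% of all marked genes, and at 3 of the 58 unmarked ones (5.17%), against 16.6% of all unmarked genes. H3K27ac was found in neither replicate at 34 marked members (10.4%), against 18.6% of all marked genes, and at all 58 unmarked ones, against 98.0% of all unmarked genes. Marked members were richer in CpG than unmarked ones, as were marked genes in general, and by less. The observed over expected CpG of the 300 bases at the gene start had a median of 0.661 in marked members (range 0 to 1.34) and 0.342 in unmarked ones (range 0 to 1.15), against 0.736 in all marked and 0.182 in all unmarked genes. With the principal start in place of the gene start the medians of the members were 0.685 and 0.313. With 90% or more unique windows the medians were 0.669 in 308 marked and 0.363 in 31 unmarked members. GC content was 55.2% and 48.3%, the number of annotated starts 4 and 2, and the distance to the nearest start of another protein-coding gene 15369 and 34235 bp (medians). Such a start lay within 3 kb at 54 marked members (16.5%), against 26.6% of all marked genes, and at 0 unmarked members, against 7.89% of all unmarked genes, and there a peak may belong to the neighbour. Without these 54, H3K4me3 was found in both replicates at 274 of 336 members (81.5%), against 55.3% of all protein-coding genes without such a neighbour. The median number of C2H2 fingers was alike, 10 in marked and 10.5 in unmarked members. By the pattern used, 342 members had 3 or more fingers, with H3K4me3 in both replicates at 292 (85.4%). The other 48 had fewer, with H3K4me3 at 36 (75%). The KRAB-type stretch was found in 154 of 328 marked (46.95%) and 44 of 58 unmarked members (75.9%), and in 44.2% and 54.8% of those with 90% or more unique windows.

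At the same CpG content, Zfp promoters carried H3K4me3 more often than all protein-coding genes where CpG was low. Below 0.2, 16 of 24 members were marked (66.7%), against 14.8% of all. From 0.2 to 0.4 it was 41 of 70 (58.6%), against 35.3%, and from 0.4 to 0.6 it was 82 of 95 (86.3%), against 70.1%. From 0.6 to 0.8 it was 107 of 115 (93.0%), against 89.5%, and from 0.8 up 82 of 86 (95.3%), against 95.1%. With the principal start, the lowest class held 13 marked of 24 (54.2%), against 12.02% of all, and the next 32 of 60 (53.3%), against 32.02%. No test was run on these shares, and the lowest class rests on 24 members.

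**Figure D5:**
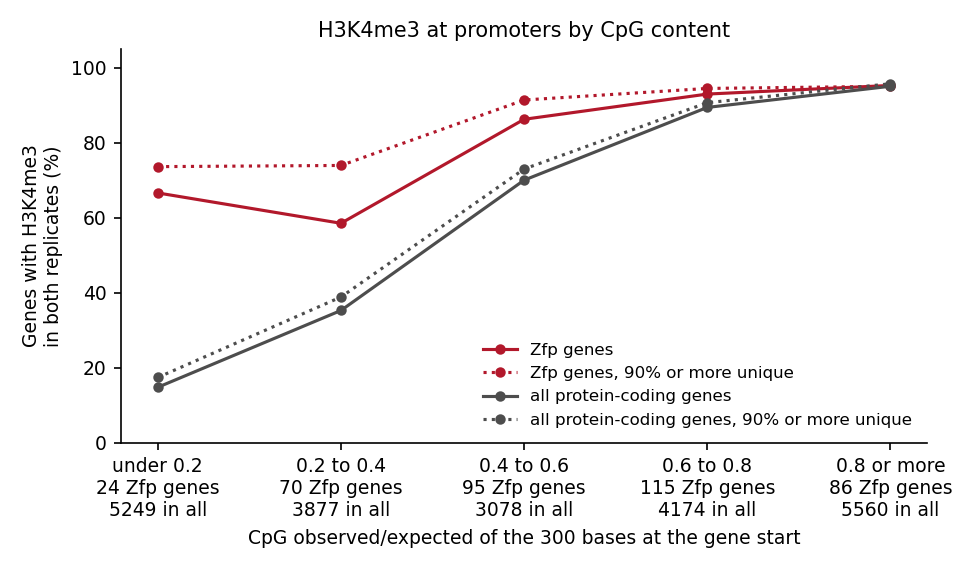
Share of genes with H3K4me3 in both replicates (%) by the observed over expected CpG of the 300 bases at the gene start, for Zfp genes and all protein-coding genes, with (dotted) and without (solid) the limit to 90% or more unique windows. The lines meet at 0.8 or more and are 66.7% against 14.8% below 0.2.

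Members whose peak and gene start went apart show what this measure leaves out. Zfp119b, Zfp385b and Zfp607a were the marked members with the lowest CpG, with 0 CpG in the 300 bases at the gene start. In Zfp119b the H3K4me3 peaks (25.98 and 18.5) covered chr17:55944479-55946045 and chr17:55944544-55945989, at the inner start printed above with its 15 CpG, and not the gene start 4241 bp away. Zfp385b had H3K4me3 at 17.2 and 11.1 and an observed over expected CpG of 0.954 at its principal start. Zfp607a had H3K4me3 at 16.3 and 10.8 and 0 CpG at its principal start too. The unmarked members with the highest CpG were Zfp317 (1.15), Zfp541 (1.12), a gene of meiosis, and Zfp819 (1.05). Zfp317 had no peak in any list, with 92.0% unique windows. Zfp541 and Zfp819 had an ATAC-seq peak in replicate 1 alone, at 6.13 and 5.11.

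Short sequence motifs were searched on both strands of the RefSeq promoter nearest to the gene start, which was found for 322 members and 16538 protein-coding genes. CCAAT was found in 157 members (48.8%), against 38.8% of all genes, in 102 of 170 KRAB-type members (60%) and 55 of 152 others (36.2%). It was found in 123 of 272 marked (45.2%) and 33 of 46 unmarked members (71.7%), and in 38.2% of all marked genes. Both printed windows of Zfp119b and that of Zfp42 hold it. GGGCGG was found in 44.4% of members, against 48.2% of all, and in 124 of 272 marked members (45.6%), against 66.8% of all marked genes. CCGGAAG was found in 69 members (21.4%), against 12.3%, and TATAAA in 19 (5.90%), against 12.9%. The shares of members and all genes were 5.28% and 3.77% for GCATGCGC, 5.28% and 3.27% for AAGATGGC, 3.42% and 2.42% for TGACGTCA and 7.45% and 8.10% for CACGTG. In marked members and all marked genes they were 5.51% and 5.38%, 5.51% and 4.44%, 4.04% and 3.30%, and 8.46% and 10.1%. Of these motifs none contains another, and a match describes the letters only.

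Of the 17 members listed for their known role, 14 had all features but H3K27me3 in each replicate, beside 66.7% of all members and 45.4% of all protein-coding genes in the state with these 3 features alone. Among KRAB zinc finger genes that silence defined targets, Zfp568, which silences a placental promoter of Igf2, had H3K4me3 at 37.6 and 28.7, Zfp809, which silences proviruses, at 31.8 and 21.99, and Zfp445, which holds imprints, at 26.6 and 21.4. Zfp57, the other keeper of imprints, had H3K4me3 at 12.3 and 9.11 and H3K27ac in replicate 1 alone, at 4.22. Zfp521, a regulator of progenitor cells, had H3K4me3 at 31.1 and 24.4. Zfp106, an RNA-binding protein needed for the upkeep of muscle and its motor nerves, had H3K4me3 at 29.9 and 23.1 and H3K27ac at 16.3 and 17.3. Zfp335 stood out in H3K27ac within replicate 1, at 49.7, with 28.6 in replicate 2. Zfp207, which helps chromosomes attach to the spindle, Zfp143, which binds promoters, Zfp148, Zfp281 and Zfp410, which controls Chd4, had H3K4me3 folds between 25.4 and 35.3 in replicate 1 and between 20.3 and 26.1 in replicate 2. Zfp462, Zfp503 and Zfp703 had 15.1 and 15.4, 16.3 and 13.8, and 32.5 and 30.03. Zfp462 also had H3K27me3 in replicate 2 alone, at 3.76. Zfp42, known as Rex1 from embryonic stem cells, had a single ATAC-seq peak in replicate 1, at 6.47, over chr8:43307069-43307152 within the promoter printed above.

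The genes that KRAB proteins work with were marked throughout. All 15 checked were open and had both active marks in each replicate, and H3K27me3 was listed at 0 of them. They were Trim28, Setdb1, Cbx1, Cbx3, Cbx5, Atf7ip, Chd3, Chd4, Atrx, Daxx, Fam208a, Mphosph8, Pphln1, Dnmt1 and Uhrf1. Of all protein-coding genes, 45.4% had these 3 features without H3K27me3, and 4.81% had H3K27me3 in both replicates. Other zinc finger families stood on either side of the Zfp genes, with H3K4me3 at 39 of 41 Zbtb genes (95.1%) and 21 of 30 Zscan and Zkscan genes (70%). Among genes outside the Zfp name with 3 or more C2H2 fingers it was found at 161 of 230 (70%), and at 33 of 74 of those with a KRAB-type stretch (44.6%). Olfactory receptor genes, another clustered family, had it at 0 of 1135. Repeated starts were not set apart in these families, where a missing peak may be missing reads. In KRAB-type members the share was 77.4%, and 88.3% among those with 90% or more unique windows.

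At the 3′ ends, where the exon with the finger array lies in many members, peaks were few. In the last 2 kb of 259 members clear of any promoter window, ATAC-seq was found in both replicates at 12 (4.63%), against 6.87% of all protein-coding genes by the same rule. H3K4me3 was found at Zfp771, Zfp385c and Zfp503, against 0.965% of all, H3K27ac at Zfp771 and Zfp251, against 0.65%, and H3K27me3 at 0, against 0.427%. H3K27me3 was found there in 1 member in each replicate, not the same one.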

How the data were processed

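The deposited peak lists of 8 chromatin libraries were used. As described by the study, the authors trimmed reads with Trim Galore 0.6.10, aligned them to mm10 with BWA 0.7.17-r1188, dropped duplicates, blacklisted regions and reads of low mapping quality (SAMtools 1.5, Sambamba), shifted ATAC-seq reads for the Tn5 offset (deepTools 3.5.5) and called peaks with MACS2 2.2.6, 1 list per library. Each deposited peak carries a fold (the authors' ratio of signal over local background at the summit) and a p-value and q-value, which the authors deposited as −log10. The deposited score was not used. The weakest listed −log10 q was 0 for H3K27me3 and 1.32 to 2.02 at the lowest in the other lists, so that H3K27me3 peaks are the least certain. The lists, of 6080 to 140937 peaks, hold no read numbers, and without the depth no counting interval could be computed.

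A gene counted as marked with 1 bp or more of a peak in its promoter in both replicates, and its value is the fold of its strongest promoter peak. Repeated sequence was measured as the share of 100-base windows within 500 bases of the gene start that occur once in GRCm38.p6. CpG content was taken from the 300 bases at the gene start, or at the start of the principal (APPRIS) transcript. Proteins translated from GENCODE coding sequences were searched for C2H2 fingers and for a KRAB-type pattern of residues. The pattern finds the domain by its letters alone and misses domains with other letters. Promoter sequences and motifs came from RefSeq. Nothing was tested for significance. All shares are descriptions beside those of all 21938 protein-coding genes. Overlap code was checked on simulated data, where 2000 of 2000 genes were called right in each of 4 settings.

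Members, lists and clusters were chosen with earlier results of these data known. The members named are the 3 highest per feature by the lower replicate, all with H3K27me3 in both replicates, the first and last of the 5 largest clusters, up to 8 in the clusters with the highest and lowest share of H3K4me3 (of those with equal shares, the largest), the 3 marked with the lowest and the 3 unmarked with the highest CpG, 17 of known role, and members of any set of 6 or fewer. The members of chromosome 2 and the neighbours Zfp971 and Zfp931 were named after their values were seen. No member of known role lacked every peak, and Zfp42, the first with no feature in both replicates, was printed in its place. Alternatives were a 1 kb promoter, 1 start per gene, a −log10 q of at least 5, other replicate rules, summit overlap, other cluster limits and leaving out sets of members. Editing samples and ChIP inputs were not analysed here. Python 3.11.15, numpy 2.4.6, pandas 2.3.3, numba 0.67.0, scipy 1.17.1, Biopython 1.88 and matplotlib 3.10.9 were used.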

Additional observations from a re-analysis of the deposited data

How the results depend on the processing

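Of 83 alternatives, 79 left the count within 1.5 times its value in the report. This held for all alternatives of ATAC-seq (274 to 343 members), H3K4me3 (274 to 332) and H3K27ac (217 to 294). It also held for H3K4me3 inside clusters (121 to 173) and outside them (153 to 206), and for H3K27ac among members with H3K4me3 (217 to 294). Leaving out 54 members for a neighbouring start, or 47 under 90% unique, could not move counts of 263 and 328 that far. Other replicate rules can only raise a count, and with 390 members in all these counts could not rise 1.5 times. Nor could 141 of 164 members inside clusters or 187 of 226 outside. The 263 members with H3K27ac all had H3K4me3, so that the count of both largely repeats that of H3K27ac. H3K27me3 went from 6 members to 0 with a −log10 q of at least 5, to 16 with a peak in either replicate, and to 9 and 13 with replicate 1 or 2 alone. Members without any peak went from 45 to 19 without those under 90% unique, by construction, since 26 of the 45 have repeated starts. The difference in median CpG observed over expected between marked and unmarked members, 0.319, was 0.373 with the principal start and 0.306 among members with 90% or more unique windows, both chosen after seeing the data. No paired analysis was possible because the results come from no test. Depth is unknown, 2 libraries a feature bound what the replicates can show, and repeated sequence limits what a missing peak says.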
